A study of Mus musculus with 4 samples.

Results

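The 500 genes with most reads were described in 1 RNA library of cultured wild-type mouse chondrocytes, out of 55450 genes in the deposited count table. Genes were ranked by their reads in the wild-type column, and each level is given as RPM, the reads of a gene for every 1000000 reads on genes in that column. The library was made from the 3′ ends of mRNAs, so that a transcript gives about the same number of reads whatever its length, and no scaling by length was applied when genes were compared. The 500 genes held 807324 reads, which was 53.6% of the library (exact Clopper-Pearson 95% interval, 53.5 to 53.7%). Presence and absence of the genes of other cell lineages were read from the whole table.

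The cells came from femoral head cartilage of C57BL/6 mice (C57BL6/J in the study's methods) at 3 weeks of age, were freed with collagenase, were grown in medium with fetal bovine serum until confluent and, per the methods, were then reseeded in 6-well plates. The labels call the cells wild type, and the study uses both wild type and Control for the reference culture of this experiment, where Control is elsewhere its term for mice in which both miR-23 clusters carry flox sites. The other 3 libraries of the series come from mice without miR-26a, with or without a transfected miR-26a mimic, and from mice without the miR-23a/b clusters in cartilage, and they are not compared here. With 1 library there was no spread between cultures, no test was made, and the sources used here do not say how many mice it pools. All intervals are exact at 95% for reads taken as independent, and they cover counting error only. Reads copied by PCR are not independent molecules, so the intervals may be too narrow even for that. Below, counting error means that of reads taken as independent. In such bulk RNA, fewer cells of a type and less RNA per cell cannot be told apart.

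Hyaline cartilage is built by chondrocytes, which surround themselves with fibrils of type II collagen and with aggrecan, a proteoglycan that holds water. Sox9, with its partners Sox5 and Sox6, switches on the genes of this matrix. Deeper in growing cartilage the cells enlarge, become hypertrophic, make type X collagen and mineral-binding proteins, and give way to bone. Chondrocytes grown flat on plastic are known to drift towards a fibroblast form, in which type I collagen rises and type II collagen falls.

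The sequencing gave 2527005 reads. In total 66.8% of them aligned once, 14.2% aligned more than once and 19.1% did not align. Genes held 1505805 reads, so that 1 read equals 0.664 RPM. A gene "at 0" had no read. Counting alone allows such a gene a level of up to 1.99 RPM by a floor of 3 reads, or 2.45 RPM by the exact 2-sided limit, and neither value covers how reads were assigned to genes. At least 1 read was found for 15210 genes, at least 10 reads for 9667 and at least 1000 reads for 184. Genes with reads had a median of 13.3 RPM, or 20 reads. Of 21951 protein-coding genes, 57.8% had reads and 486 were among the 500, and the counts given for gene lists stand beside these shares. Together 390 genes held 50% of all reads. The first 30 genes held 22.4% of the library and the first 10 held 15.2%. The sources used here do not say whether reads were counted by strand, so reads of overlapping genes on opposite strands may not be told apart.

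**Figure D1:**
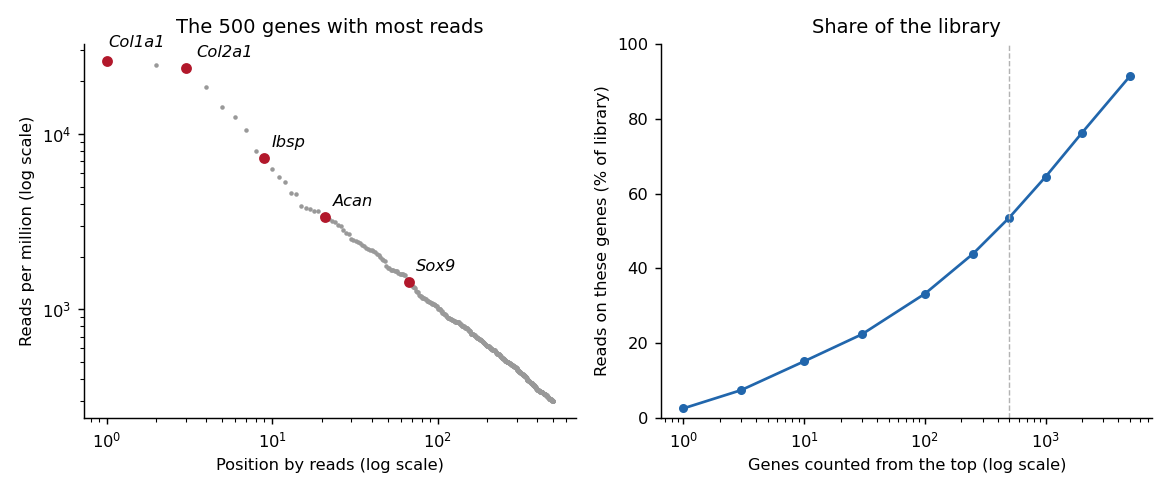
Left, RPM of each of the 500 genes (log scale) against position by reads (log scale), with the 5 marker genes in red. Right, the share of the library's reads held by the first 1 to 5000 genes, with a dashed line at 500. Levels fell from 39203 reads for Col1a1 to 452 for the gene at position 500, and the share rose from 2.60% on the first gene to 53.6% on 500 and 91.5% on 5000.

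Both cartilage and bone or fibrous matrix genes stood at the top. Col1a1, a chain of type I collagen of bone, tendon and skin, had the most reads with 39203, or 26035 RPM (25777 to 26294). It lies on chromosome 11 from 94936224 to 94953042 (GRCm38). Col2a1, the chain of type II collagen on chromosome 15 from 97975602 to 98004695, stood at position 3 with 35871 reads, or 23822 RPM (23576 to 24069.6). There were thus 1.09 reads of Col1a1 for each read of Col2a1 (1.08 to 1.11). Ibsp, bone sialoprotein, a mineral-binding protein of bone and of hypertrophic cartilage on chromosome 5 from 104299171 to 104311469, stood ninth with 10938 reads, or 7264 RPM (7128 to 7401). Acan, the core protein of aggrecan on chromosome 7 from 79053483 to 79115099, was at position 21 with 5077 reads, or 3372 RPM (3279.5 to 3466). Sox9, on chromosome 11 from 112782224 to 112787760, was at position 67 with 2158 reads, or 1433 RPM (1373 to 1495). Col2a1, Acan and Sox9 mark chondrocytes in general, and all 3 were among the first 100 genes. Of genes known from joints, Prg4 had 101 reads and Gdf5 1, beside the median of 20 reads over genes with reads. The order of Col1a1 and Col2a1 turned when the authors' TPM, in which reads are divided by the length of 1 transcript, was used in place of reads, with a ratio of 0.896.

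Beyond these, the first 30 genes fell into a few kinds. Matrix and matricellular genes were Sparc (osteonectin, a collagen-binding protein, 27867 reads), Fn1 (fibronectin, 21338), Col1a2 (the second chain of type I collagen, 18746), Mgp (matrix Gla protein, an inhibitor of calcification, 8035), Col11a1 (a chain of type XI collagen, 4944), Thbs1 (thrombospondin 1, 4800), Fmod (fibromodulin, which binds collagen fibrils, 4124) and Cnmd (chondromodulin, a cartilage protein that inhibits vessel growth, 3768). Timp3, a matrix-bound inhibitor of metalloproteinases, stood seventh with 15794 reads. The mitochondrial genome gave mt-Nd4 (37342 reads), mt-Cytb (12063), mt-Nd1 (6860) and the ribosomal RNA mt-Rnr2 (4472). Ribosomal protein genes were Rplp1 (9499), Rps14 (5605) and Rpl37 (4533).

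The rest of the first 30 were of mixed function. Penk, the precursor of the enkephalin peptides, had 8544 reads. Ctsd, the lysosomal protease cathepsin D, had 5877, and Laptm4a, a lysosomal membrane protein, 5489. The cytoskeleton gave Vim (vimentin, 5727) and Actb (cytoplasmic beta-actin, 5113). Fth1, the heavy subunit of the iron store ferritin, had 5480 reads, and Ccnd2, a D-type cyclin of the G1 phase, 4256. Gm42418 (6926) and Malat1 (4041) are noncoding RNAs. Cdsn, corneodesmosin, which joins cornified cells of the skin, had 4736 reads at position 24. Across the 30 steps from position 1 to 31, the ratio of neighbours had an interval that included 1 in 13, and each of the first 12 genes, down to Mgp, differed from the next by more than counting error. Actb, Acan, Col11a1, Thbs1 and Cdsn, at positions 20 to 24, formed a run in which no neighbours differed beyond counting error.

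Where the ranking ends, the levels were close together. The last 3 genes inside were Ssb (453 reads), Mfsd1 (452) and Tnc (452), and the first 3 outside were Ran (452), Psmb1 (450) and Plod1 (449). Tnc, tenascin C, is a matricellular protein and Plod1 a lysyl hydroxylase of collagen. Ran had as many reads as the last member, and the order among ties followed the gene identifier only. Of the 500 genes, 486 are annotated as protein coding, 7 as lincRNA, 3 as processed transcript, 2 as mitochondrial ribosomal RNA and 2 as processed pseudogene.

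Each of the 500 genes was placed in 1 class. The skeletal and matrix class without collagens had 27 genes and held 7.87% of the library. It joined the cartilage, hypertrophic, bone, fibroblast, matricellular and small leucine-rich proteoglycan lists, and Mgp (8035 reads) was added by name. Vim (5727 reads) counts there through the fibroblast list and not with the cytoskeleton. The 14 collagen chains held 7.52% and 63 ribosomal protein genes 7.35%. The order of these classes by share depends on which lists and genes are joined. The 8 mitochondrially encoded genes held 4.50%. By the authors' TPM the whole ribosomal protein list held 17.2% and all collagens 4.00%, so that collagens and ribosomal proteins had near equal shares by reads and not by TPM. Genes for collagen folding and the endoplasmic reticulum, the compartment in which secreted proteins fold, numbered 34 with 2.34%. Proteases and inhibitors in none of the former numbered 7 with 1.65%, of which Timp3 had most. The remaining 261 genes, in none of the 13 classes, held 15.9% of the library. The classes were put together after the values had been seen.

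**Figure D2:**
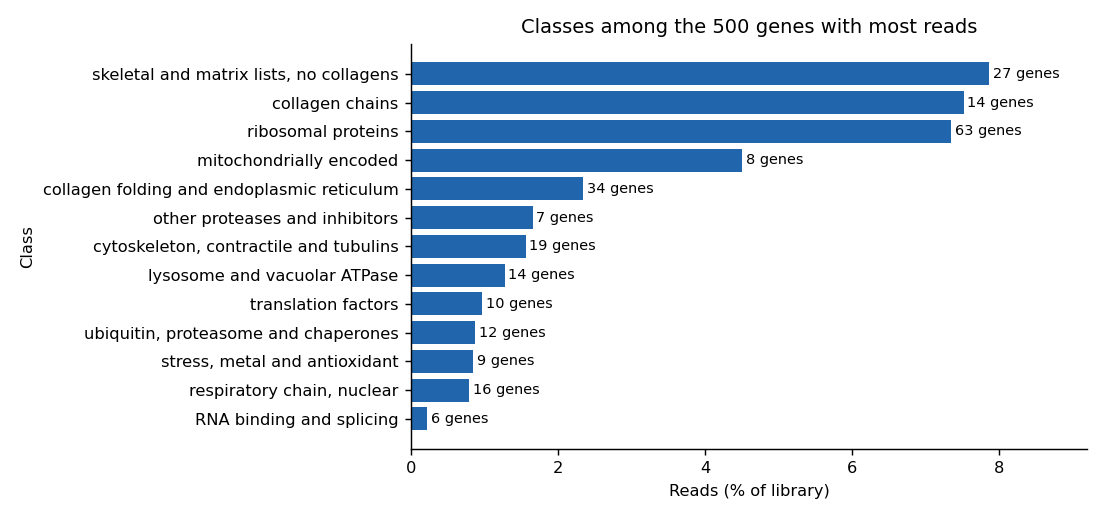
Share of the library's reads (%) held by each class of genes among the 500, with the number of genes written at each bar; a gene counts in 1 class only, and the 261 genes in no class are not drawn. Genes of the skeletal and matrix lists without collagens (7.87%), collagens (7.52%) and ribosomal proteins (7.35%) had the longest bars. The skeletal and matrix bar includes Mgp, added by name, and Vim, through the fibroblast list.

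Of 27 genes of cartilage matrix, 25 had reads and 13 were among the 500, with 4.21% of the library together (4.17 to 4.24%, and 2.22% by TPM) and a median of 284 RPM per gene. Col2a1 alone made up 56.6% of these reads. After Col2a1, Acan and Col11a1 came Cnmd (3768 reads), Matn1 (matrilin 1, 2495), Col9a1 (2247), Ucma (a small secreted cartilage protein, 1631), Col27a1 (1591), Col11a2 (1269) and Snorc (a chondroitin sulphate proteoglycan of cartilage, 1096). Hapln1, the link protein that fastens aggrecan to hyaluronan, had 508 reads, so there were 9.99 reads of Acan for each of Hapln1 (9.12 to 11.0). Versican, Vcan, the large proteoglycan of soft connective tissue, had 16 reads, and Acan exceeded it 317-fold (195 to 556). Prg4, lubricin, made at the joint surface, had 101 reads and Comp, cartilage oligomeric matrix protein, 427. The 2 members at 0 were Clec3a and Crtac1. Genes of this paragraph beyond the 3 highest, the pairs and those at 0 were chosen after their values were seen.

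Among 20 regulators of chondrocytes, 18 had reads and 5 were among the 500. Sox9 led with 1433 RPM, followed by Zbtb20, a zinc finger repressor (1192 reads, 792 RPM), and Wwp2, a ubiquitin ligase whose gene hosts miR-140 (588 reads, 390.5 RPM). The partners of Sox9 were lower, with 212 reads for Sox6 and 61 for Sox5, or 0.288 reads of Sox5 for each of Sox6 (0.213 to 0.384). Sox9 had 45.9 reads for each read of Runx2 (34.4 to 62.7), the transcription factor of osteoblasts and hypertrophic chondrocytes, which had 47. Nkx3-2 and Pthlh, which keep chondrocytes from hypertrophy, were at 0, and Gdf5, a ligand of developing joints, had 1 read.

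All 15 genes of hypertrophic chondrocytes had reads and 6 were among the 500, with 1.19% of the library, of which Ibsp made up 61.0%. Pth1r, the receptor of PTHrP, had 1637 reads, or 1087 RPM, and Mmp13, the collagenase of hypertrophic cartilage, 1415, or 939.7 RPM. Spp1, osteopontin, had 1140 reads and Panx3, a channel protein of cartilage and bone, 1079. Col10a1, the defining collagen of hypertrophic cells, was much lower, with 105 reads, or 69.7 RPM (57.0 to 84.4). That was 0.00293 reads for each read of Col2a1 (0.00239 to 0.00354), and 0.00455 by TPM. Ihh, Indian hedgehog, had 24 reads. Panx3 and Ihh were chosen after their values were seen.

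Of 27 bone genes, 21 had reads and 7 were among the 500, with 6.75% of the library (6.71 to 6.79%). Col1a1, Sparc, Col1a2 and Ibsp made up 95.2% of these reads, and the other 23 genes held 0.327% of the library. Fibroblasts also make Col1a1, Col1a2 and Sparc, and 15 of the 27 genes stand in another of the lists used here. Alpl, the phosphatase that frees phosphate for mineral, had 701 reads. Sp7, osterix, a transcription factor of osteoblasts, had 161. Osteocalcin has near-identical gene copies, among which the reads may be split: Bglap had 98 reads, Bglap2 131 and Bglap3 0. Sost, Mepe, Phex, Fgf23 and Phospho1 were at 0, and Dmp1 had 4 reads. For Phospho1, all of the last 300 bases of the longest transcript are also part of Zfp652, which had 43 reads. Ibsp had 9.59 reads for each read of Spp1 (9.03 to 10.2), its fellow mineral-binding phosphoprotein. Alpl, Sp7 and Dmp1 were chosen after their values were seen.

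Of 26 genes of fibroblasts and tendon, 25 had reads and 10 were among the 500, with 2.76% of the library. Fn1 made up 51.3% of these reads with 14170.5 RPM, and Vim (5727 reads) and Dcn (decorin, 3068) followed. The median of the list was 138 RPM. Among its members with few reads, Thy1 had 6, Pdgfra 21, Scx, the transcription factor of tendon, 51, and Eln, elastin, 3. Tnmd, tenomodulin, a membrane protein of tendon cells, was at 0. Postn, periostin, had 10 reads. All of these but Tnmd were picked with their values known. Of 22 genes of synovium and mesenchymal progenitors, 16 had reads, led by Cxcl12, a chemokine (765 reads), Ctsk, the protease cathepsin K (191), and Pdpn, podoplanin (130). Clic5, Has1, Lepr, Mcam, Pi16 and Tspan15 were at 0.

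Collagen genes held 7.61% of the library (7.57 to 7.65%). Of 44 in the table, 38 had reads and 14 were among the 500, and Col1a1, Col1a2 and Col2a1 made up 81.9% of the collagen reads. The order by RPM was Col1a1, Col2a1, Col1a2 (12449 RPM), Col11a1 (3283), Col5a2 (1658), Col5a1 (1622), Col9a1 (1492), Col27a1 (1057), Col3a1 (1048) and Col11a2 (843). Within this run Col5a2 and Col5a1 did not differ beyond counting error (ratio 1.02, 0.966 to 1.08), nor did Col27a1 and Col3a1 (1.01, 0.940 to 1.08). Col3a1, the collagen of soft and healing tissue, had 0.0403 reads for each read of Col1a1 (0.0383 to 0.0423), and 0.0756 by TPM. Among the 26 steps down the order that start at a gene with 10 reads or more, the interval included 1 in 10. The 6 collagen genes at 0 were Col7a1, Col6a4, Col6a6, Col28a1, Col4a3 and Col6a5.

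**Figure D3:**
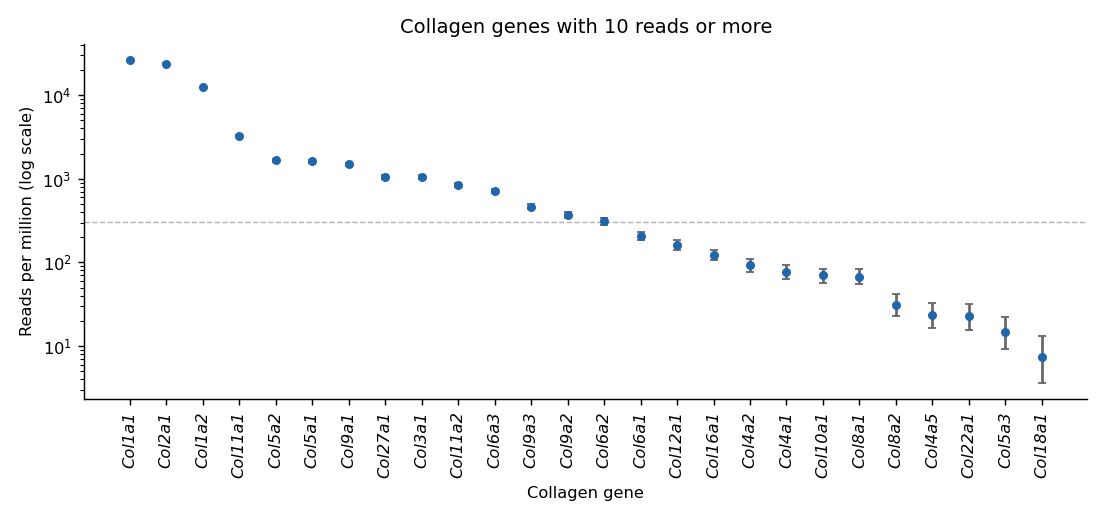
RPM (log scale) of the collagen genes with 10 reads or more, in order; bars are exact 95% Poisson intervals of the 1 library and the dashed line is the lowest level among the 500. The 3 leading genes run from 12449 to 26035 RPM, and 14 genes lie on or above the line.

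Chains that assemble into 1 collagen had unequal reads in types I, IX, XI and VI, and reads that did not differ beyond counting error in type V. Type I collagen joins 2 Col1a1 chains with 1 Col1a2 chain, and there were 2.09 reads of Col1a1 for each of Col1a2 (2.06 to 2.13), a ratio that turned to 0.300 by the authors' TPM. Type V had 0.979 reads of Col5a1 for each of Col5a2 (0.925 to 1.04). Type IX, which takes 1 of each of 3 chains, had 4.06 reads of Col9a1 (3.69 to 4.46) and 1.26 of Col9a3 (1.13 to 1.41) for each of Col9a2. Type XI had 3.90 reads of Col11a1 for each of Col11a2 (3.66 to 4.15), and 11.4 by TPM. Type VI had 0.675 reads of Col6a1 (0.583 to 0.781) and 2.30 of Col6a3 (2.06 to 2.57) for each of Col6a2, the latter 1.01 by TPM. Reads compare mRNA ends and not protein.

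Small leucine-rich proteoglycans, which coat collagen fibrils and set their width, numbered 15, with 13 showing reads and 6 among the 500. Fmod led with 2739 RPM (2656 to 2824), followed by Dcn (2037) and Bgn, biglycan (1938), and the ratio of Bgn to Dcn, 0.951, had an interval that included 1 (0.904 to 1.00) but was 2.02 by TPM. Kera and Nyx, genes of the cornea and retina, were at 0. Among 34 enzymes and carriers of glycosaminoglycan synthesis, 32 had reads and 3 were among the 500: the sulphate carrier Slc26a2 (743 reads), the sulphate donor enzyme Papss2 (592) and Impad1 (469), a phosphatase of the sulphation pathway. Has1 and Has3, 2 of the 3 hyaluronan synthases, were at 0, and Has2 had 16 reads (chosen after its value was seen).

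The 14 inhibitors of proteases held 24290 reads, the 21 metalloproteinases 2774 and the 18 ADAMTS genes 327. Among the inhibitors, Timp3 (10489 RPM), Timp2 (2283) and Cst3, cystatin C (2139), made up 92.4% of the list's reads. Spint1 was at 0. Of the metalloproteinases, 15 had reads, and Mmp13 (939.7 RPM), the gelatinase Mmp2 (347) and the membrane-bound Mmp14 (321) were among the 500, whereas Mmp7, Mmp8, Mmp9, Mmp10, Mmp17 and Mmp24 were at 0. Timp2 had 6.58 reads for each read of Mmp2 (6.00 to 7.23), while Timp1 had 0.405 for each of Mmp13 (0.367 to 0.447), which turned to 1.23 by TPM. Of the ADAMTS genes none was among the 500, and 13 had reads, with Adamts2, which trims procollagen, at 103 reads, Adamts1 at 67 and the aggrecanase Adamts5 at 63. There were 12.6 reads of Adamts5 for each of the 5 of the other aggrecanase, Adamts4 (5.12 to 40.1), and by TPM the ratio was 5.12. Adamts3, Adamts8, Adamts16, Adamts19 and Adamts20 were at 0. Lysosomal genes were all found, 20 of 20, with Ctsd (3903 RPM), the tetraspanin Cd63 (2059) and Lamp1 (1152) leading.

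All 32 genes of collagen folding and crosslinking had reads and 10 were among the 500, led by Serpinh1, the collagen chaperone Hsp47 (3314 reads, 2201 RPM), P4hb, a subunit of prolyl 4-hydroxylase (1685, 1119), and Pcolce, which enhances the trimming of procollagen (1402, 931). P4hb had 3.13 reads for each read of the catalytic subunit P4ha1 (2.84 to 3.46). Lox, which crosslinks collagen, had 1211 reads (chosen after its value was seen). All 41 genes of the endoplasmic reticulum's chaperones and translocon had reads and 20 were among the 500, with 1.79% of the library. Hspa5, the chaperone BiP, had 3736 reads, or 2481 RPM, the translocon subunit Sec61a1 had 1817 and P4hb stands in this list too.

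Promoters from this last list are shown because some of them hold a stretch that is rare elsewhere. The endoplasmic reticulum stress response element, which is CCAAT and CCACG with 9 free bases between them and to which factors of the unfolded protein response are known to bind, was sought on both strands in the 250 bases before the start. It occurred in 7 of the 33 genes of this list with a RefSeq window from 250 bases before to 50 after the start (21.2%), against 33 of all 27025 windows (0.122%) and 5 of the 385 windows of the 500 genes (1.30%). A match is a description of the letters and not a measured site. Below, the first and last 5 bases of the element are in capitals, each stretch runs 5′ to 3′ on the gene's strand (GRCm38.p6), and CGTGG with ATTGG marks the element on the other strand.
Hspa5, chr2:34772020-34772049, plus strand: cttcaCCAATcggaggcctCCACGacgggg
Hsp90b1, chr10:86705632-86705661, minus strand: caagcCCAATcgcaaggagCCACGcttcgg
Hsp90b1, chr10:86705527-86705556, minus strand: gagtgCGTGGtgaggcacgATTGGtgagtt
Calr, chr8:84847069-84847098, minus strand: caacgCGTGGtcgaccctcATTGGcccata
Pdia6, chr12:17266486-17266515, plus strand: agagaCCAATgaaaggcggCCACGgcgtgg
Canx, chr11:50325794-50325823, minus strand: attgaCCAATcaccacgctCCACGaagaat
Hspa5, Hsp90b1 (1659 reads), Calr (1607), Pdia6 (1236) and Canx (665) are chaperones or protein disulphide isomerases of the compartment, and all 5 were among the 500. Dnajc3 (347 reads) and Creld2 (75) also hold the element and were outside. These genes were chosen for the element.

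Cytoplasmic ribosomal protein genes held 7.58% of the library (7.53 to 7.62%). All 79 had reads and 63 were among the 500, with a median of 788 RPM, but their levels ran from 6 reads for Rpl24 to 9499 for Rplp1. The mRNAs of these genes are known to begin with a C and a run of pyrimidines, through which their translation is controlled. In the RefSeq windows the annotated start was a C followed by 4 pyrimidines in 13 of 58 ribosomal protein genes (22.4%), against 2.49% of all windows and 3.24% of those of the 500 without ribosomal protein genes (11 of 339). The examples with most reads are shown with the first 5 transcribed bases in capitals, 10 bases before and 15 after them.
Rps21, chr2:180257369-180257398, plus strand: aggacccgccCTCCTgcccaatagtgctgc
Rplp2, chr7:141447641-141447670, plus strand: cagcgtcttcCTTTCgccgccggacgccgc
Rps15a, chr7:118116128-118116157, minus strand: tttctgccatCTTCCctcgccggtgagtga
Rpl38, chr11:114668570-114668599, plus strand: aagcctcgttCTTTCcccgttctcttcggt
Rps21 had 3683 reads, Rplp2 2646, Rps15a 1784 and Rpl38 1596. They were chosen for this feature.

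Ribosomal protein genes have many processed copies in the genome, and those with more shared sequence had a lower median of reads. In the last 300 bases of the longest transcript, windows of 75 bases, the length of a read, were looked up in the transcripts of all other genes. The 40 genes in which under 10% of the windows were shared had a median of 1675 reads (131 to 5605). The 34 genes with 10 to under 90% shared had a median of 842 (6 to 9499), and the 5 genes with 90% or more had a median of 508 (36 to 1611). Among the 500 genes, which were chosen by their reads, the 4 with 90% or more shared had a median of 1235.5 and the 447 with none shared a median of 765. Rps6 had 36 reads with 100% of its windows shared and Rpl24 had 6 with 79.2%. How far reads that aligned more than once account for these levels was not tested. Of the 37 translation factors all had reads, led by Eef2 (2856 reads), Eif4g2 (2509) and Rack1 (2382), with Eef1a1, usually among the most abundant mRNAs of a cell, at 61.

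Some further genes of general use had few or no reads, although Actb, Fth1, Eef2, Pkm, Aldoa and Ldha were among the 500. Gapdh, the glycolytic enzyme often taken as a reference gene, had 0 reads, with 29.2% of its windows shared. Actg1, cytoplasmic gamma-actin, had 16 reads, so that Actb exceeded it 320-fold (197 to 560), and none of its windows were shared exactly. Ftl1, the light subunit of ferritin, had 286 reads, with 49.6% of the windows shared, and there were 19.2 reads of Fth1 for each (17.0 to 21.7), against 12.4 by TPM. Pgk1 had 28 reads with no exact shared window. Sequence copies that differ by a few bases were not searched. The low counts of these genes are given as the files hold them. Eef1a1, Pgk1, Rps6, Rpl24 and the genes set beside them here were chosen after their values were seen.

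Of 22 glycolytic genes, 21 had reads, led by Pkm (1918 reads), Aldoa (1330) and Ldha (841). All 76 nuclear genes of oxidative phosphorylation had reads and 16 were among the 500, led by Atp5g3 (1317), Cox6a1 (1018) and Cox7c (1004), with 1.63% of the library and 3.31% by TPM. The mitochondrial genome itself gave 4.52% (4.48 to 4.55%) from 13 of 15 genes. There mt-Nd4 made up 54.9% of the reads, while mt-Atp8 and mt-Nd4l were at 0. Of the subunits of complex IV, mt-Co1 had 1773 reads and mt-Co2 29, a ratio of 61.1 (42.4 to 91.6), which was 27.1 by TPM. Of the windows at the ends of these genes, 100% of those of mt-Co1 and 98.7% of those of mt-Co2 were shared with a nuclear copy. The gene mt-Nd4 overlaps mt-Nd4l on the same strand.

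The cytoskeleton list had reads for 40 of 40 genes, led by Vim, Actb and Tuba1a (1786 reads). Acta2, smooth muscle alpha-actin, had 321 reads, or 0.0628 for each read of Actb (0.0559 to 0.0703). Of 20 smooth muscle and contractile genes, 17 had reads and 6 were among the 500, with a median of 54.8 RPM, and the list was led by Cald1 (1299 reads), Tpm1 (1180) and Actn1 (665), which many cell types express. Tagln had 3 reads and Cnn1 6 (chosen after their values were seen), and Actg2, Myh11 and Myocd were at 0.

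Of 41 TGF-beta and BMP genes all had reads, but only Tgfb2 (499 reads, 331 RPM) was among the 500, ahead of Bmp4 (440) and the BMP antagonist Chrdl1 (437). Of 31 Wnt genes, 24 had reads, led by Ctnnb1, beta-catenin (1525), the antagonist Frzb (883) and Dkk3 (488). Dkk1, Dkk2, Sfrp1, Sost, Wnt1, Wnt2 and Wnt3a were at 0. In the IGF axis Igfbp4 (2493 reads), the receptor substrate Irs1 (864) and Igfbp5 (841) led. There were 2.96 reads of Igfbp4 for each of Igfbp5 (2.74 to 3.21), and the ratio was 4.65 by TPM. Igf2 and Igfbp1 were at 0, but all windows at the end of Igf2 are shared with another gene. Matricellular genes were led by Sparc, Thbs1 and Ccn2, connective tissue growth factor (3648 reads), and Ccn6 and Tnxb were at 0. Of 28 integrins and matrix receptors, 26 had reads, led by the integrin chain Itgb1 (1083) and the syndecans Sdc2 (961) and Sdc3 (770), and the integrin chains Itga4 and Itga8 were at 0.

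All 40 cell cycle genes had reads, with a median of 20.5, and none was among the 500. Together they held 0.0642% of the library, led by Cdk1 (85 reads), Birc5 (58) and Mcm7 (50). Of 15 genes of G1 and of cyclin inhibition all had reads, with a median of 93.6 RPM, and 3 were among the 500. These were Ccnd2 (2826 RPM), Ccnd1 (847) and the inhibitor Cdkn1a, p21 (689). Replication-dependent and variant histones were led by Hist1h1c (913), H3f3b (589) and Hist1h2bc (523), and 8 of 18 were at 0. Most histone mRNAs lack a poly(A) tail, which this kind of library needs for priming. The 8 were Hist1h1a, Hist1h1b, Hist1h1e, Hist1h2ab, Hist1h3a, Hist1h3b, Hist1h4a and Hist2h2aa1.

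Of 35 genes for stress, metals and oxidants, 34 had reads and 9 were among the 500, led by Fth1, the peroxidase Prdx1 (1386 reads) and the metallothionein Mt1 (1349), with 1.72 reads of Mt1 for each of Mt2 (1.57 to 1.88), and Mt3 was at 0. Of 27 genes of inflammation, 18 had reads and only Cxcl12 was among the 500, ahead of Csf1 (312) and Tnfrsf11b (162). Ccl5, Csf2, Cxcl2, Il1a, Il1b, Il6, Nos2, Tnfaip3 and Tnfsf11 were at 0. Tnfrsf11b is osteoprotegerin, the decoy that binds the osteoclast factor RANKL made by Tnfsf11. Immediate early genes were led by Fosl2 (509 reads), Dusp1 (213) and Klf4 (210), and Egr2 was at 0. Annexins, S100 proteins and galectins were led by Lgals1 (1248), Anxa2 (1207) and S100b (1031), a calcium-binding protein of chondrocytes and glia, and Anxa11 was at 0.

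Of 20 genes listed as imprinted, which in some tissues are read mainly from 1 parental copy, 17 had reads and 7 were among the 500. Parental copies were not measured. Dcn, Meg3 (1759 reads) and H19 (1578) led, the last 2 being noncoding RNAs, and Igf2, Phlda2 and Rtl1 were at 0. H19 and Igf2 are neighbours, but 100% of the windows of Igf2 are also part of Gm49394, an overlapping gene on the same strand with 0 reads, so no ratio is given. Of 10 genes that host microRNAs all had reads, led by Col27a1, Wwp2 and Ctdspl (365), and of 13 genes of microRNA processing, 12 had reads, led by Tnrc6a (210), Ago2 (125) and Tnrc6c (119), with Tarbp2 at 0. Of 18 mineralisation genes 15 had reads and 4 were among the 500. Mgp, Spp1 and Anxa5 (724) led, and Ahsg, Phex and Phospho1 were at 0, the last with all of its end windows shared with another gene. Of 5 sex-linked genes, Ddx3y had 128 reads, Eif2s3y 31, Uty 30 and Kdm5d 12, and Xist was at 0. The study used male mice.

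The glial list held 1465 reads, of which 1031 were those of S100b, the macrophage list 1400, the adipocyte list 782 and the osteoclast list 241, of which 191 were those of Ctsk. Which cells these reads came from was not tested. Of 22 macrophage genes, 21 had reads and held 0.0930% of the library. Lyz2, lysozyme, was the only one among the 500, with 712 reads, or 473 RPM (439 to 509), and it made up 50.9% of the list. The receptor Csf1r had 80 reads and the complement chains C1qa 77, C1qb 71 and C1qc 67. Cd163 was at 0. For each read of Col2a1 there were 0.0198 reads of Lyz2 (0.0184 to 0.0214), and by TPM the ratio was 0.0733. Of 12 osteoclast genes, Ctsk had 191 reads, Nfatc1 41 and Acp5 4, while Calcr, Car2, Dcstamp, Mmp9, Ocstamp and Oscar were at 0. Of 16 adipocyte genes, Lpl (338 reads), Car3 (126) and Plin4 (85) led, and Cidec, Lep, Plin1 and Ucp1 were at 0. C1qb, C1qc and Acp5 were picked with their values known.

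In the 9 lists of lymphocytes, granulocytes and mast cells, erythroid cells, endothelium, neurons, hepatocytes, skeletal muscle, heart muscle and organ-restricted genes, 110 of 137 genes were at 0 and 10 had more than 3 reads. Together they had 87 reads, or 57.8 RPM, and the highest was Map2, a microtubule protein of neurons, with 12. With the epithelial and glial lists added, 126 of 161 genes were at 0 and the sum was 1587 reads, of which S100b had 1031. None of 10 erythroid genes had a read, the globin genes Hba-a1, Hba-a2, Hbb-bs and Hbb-bt among them, and none of 8 heart muscle genes. The endothelial list had 22 reads on 5 of 16 genes, with Erg at 8 and Pecam1, Cdh5, Kdr, Tek and Tie1 among those at 0. The lymphocyte list had 7 reads on 3 of 17 genes, none over 3 reads, with Cd3e, Cd4 and Cd8a at 0, and the list of granulocytes and mast cells had 1 read, of S100a8, on 14 genes. The skeletal muscle list had 15 reads on 7 of 19 genes, the neuron list 25 on 4 of 14, the hepatocyte list 3 on 2 of 11 and the 28 organ-restricted genes 14 on 5. Of 10 glial genes, S100b and Pmp22 (421 reads) held most reads, whereas Sox10, Gfap, Aqp4 and Olig2 were at 0. Of 14 epithelial genes 3 had reads, with 17 each for Krt10 and Trp63 and 1 for Lor, and Krt5, Krt14, Krt1, Epcam and Cdh1 were at 0 beside the 4736 reads of Cdsn. None of the 75-base windows at the end of Cdsn was shared with another gene, and no annotated gene overlaps it.

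**Figure D4:**
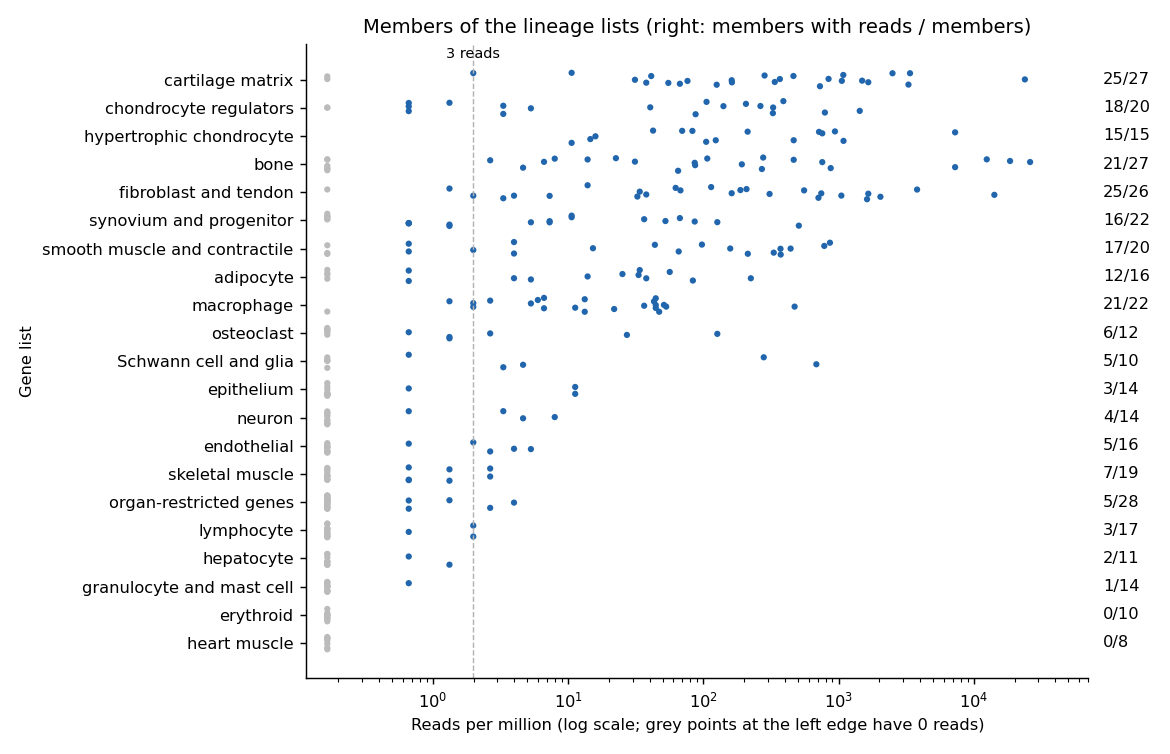
RPM (log scale) of each member of 21 lists of lineage genes; each point is a gene, grey points at the left edge have 0 reads, the dashed line is at 3 reads, and the numbers at the right are members with reads over all members. Cartilage, bone and fibroblast genes reach above 10000 RPM, and no endothelial, lymphocyte, granulocyte, hepatocyte, erythroid, skeletal muscle or heart muscle gene reaches 10 RPM.

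Some families were tallied after the values had been seen. Proteasome subunits had reads in 44 of 45 genes and 3 among the 500, led by Psmd8 (767 reads). Of 23 tubulin genes 5 were among the 500, led by Tuba1a. Of 96 small GTPases 86 had reads, led by Cdc42 (959 reads). Vacuolar ATPase subunits had reads in 20 of 26 genes, with Atp6v1a at 748.

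The authors' TPM values, in which reads are divided by a length, gave another order. For 4685 genes with at least 50 reads, the length behind the TPM was solved from the reads, and in 99.4% it was that of 1 annotated GENCODE transcript to within 0.5 bases, in 93.4% the first listed. In 55.8% it was the longest transcript. Among the 499 of the 500 genes with a TPM, the length was under 25% of the longest transcript in 39. For Col1a2 it was 850 bases, with a longest transcript of 5348, and for Vim 574 of 2926. Col1a1 was divided by 5930 bases, its longest transcript. Col1a2 accordingly stood second by TPM (21109.7) and Col1a1 fourteenth (6328), although Col1a1 had 2.09 times as many reads. Ccdc80 was divided by 363 bases of 4083 and stood ninth by TPM against position 34 by reads (chosen after its values were seen).

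**Figure D5:**
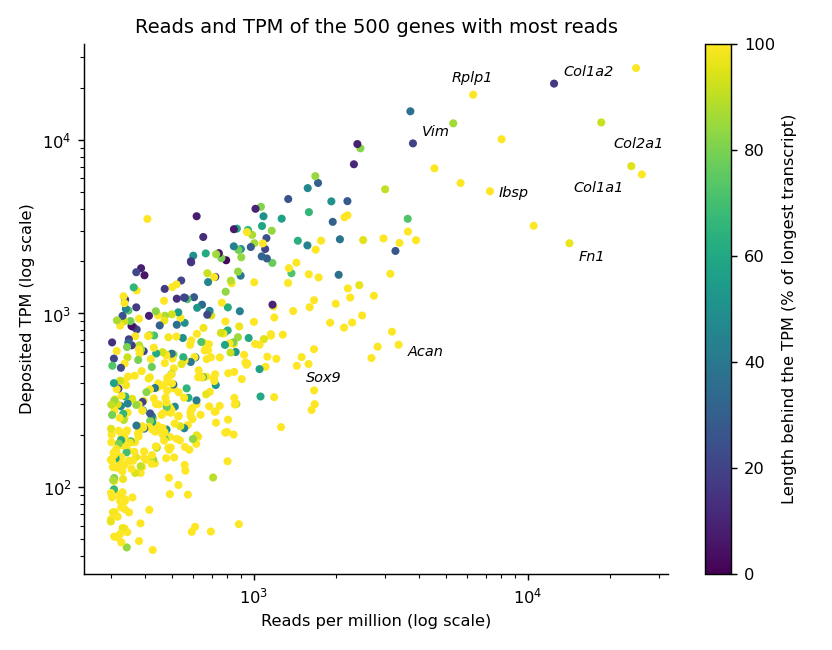
Deposited TPM (log scale) against RPM (log scale) of the 499 genes with a TPM among the 500, coloured by the length behind the TPM as a percentage of the longest annotated transcript. Col1a2 (850 of 5348 bases) and Vim (574 of 2926) were divided by a short transcript, and genes of like reads differ in TPM.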

How the data were processed

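RNA of 1 culture of wild-type chondrocytes (500 ng, 12 PCR cycles) was made into a QuantSeq 3′ mRNA library, read as single-end reads of 75 bases and mapped to mm10 (GRCm38.p6 in the submitters' notes). Per the paper's methods no reads were filtered for quality. The aligner, counter and annotation release are not given in the sources used here. The authors deposited whole reads per gene without normalization, held here as estimated counts because the column also carries a summary of the alignment that contains a percent. The deposited TPM values were made by the authors from these reads with 1 length per gene.

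Rows with an Ensembl identifier were kept, and genes were joined by identifier to GENCODE M21 for position and type. The files give no symbol for 33059 genes, which took the GENCODE name. RPM, shares, exact Poisson intervals and Clopper-Pearson intervals (95%) were computed with Python 3.11.15, pandas 2.3.3, numpy 2.4.6 and SciPy 1.17.1, and figures with Matplotlib 3.10.9. The intervals were tried on simulated libraries of independent reads. Such draws hold no PCR copies, so they cannot show whether the intervals are wide enough for this library. A count of 0 was read against a floor of 3 reads. Promoter windows are from RefSeq (GRCm38.p6), the first listed per gene, and 385 of the 500 genes matched by symbol.

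The 52 gene lists, 30 pairs and members were chosen with earlier results of these data known, and lists may share genes. Of the list entries, 20 matched no gene, mostly second names of genes already listed. Named genes were the 5 markers, the 30 genes with most reads, the 3 highest members and those at 0 of each list, both members of each pair, and 3 genes on each side of position 500. Not every gene at 0 is printed. Other genes were chosen after their values were seen. Alternatives were TPM in place of reads, leaving out mitochondrial genes, protein-coding genes only, and minimums of 3 and 10 reads. The other libraries of the series were not analysed here. Some items are not reported here.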

Additional observations from a re-analysis of the deposited data

How the results depend on the processing

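With 1 library no replicate could be left out, and scaling factors between libraries (TMM, DESeq2) did not apply. No paired analysis was possible because there is 1 library and no test. Of 49 alternatives to the values reported, 13 stayed within the interval or within 1.5 times the count, 33 moved and 3 turned to the other side of 1. With deposited TPM in place of reads, the 500 highest genes held 64.0% and 202 genes held 50%, and 306 of the 500 genes were kept. TPM gave ribosomal protein genes 17.2%, mitochondrially encoded genes 5.15%, collagens 4.00%, the cartilage matrix list 2.22% and the bone list 4.80%. The ratio of Col1a1 to Col2a1 turned to 0.896 by TPM, that of Col1a1 to Col1a2 to 0.300 and that of Timp1 to Mmp13 to 1.23. Of the 27 pairs other than Col1a1 with Col2a1, 8 stayed inside the interval, 17 moved on the same side of 1 or from an interval that included it, and 2 turned, which are the last 2 just given. By TPM, Col2a1 ranked 12, Acan 222, Sox9 314, Col1a1 14 and Ibsp 20. Without mitochondrially encoded genes the first 500 held 51.7%, and with protein-coding genes only 54.1%. With a minimum of 10 reads 9667 genes were counted in place of 15210. A TPM divides 3′ reads by the length of 1 transcript. Depth limits statements on absence to 1.99 RPM (3 reads) or 2.45 RPM (the exact limit of 0 reads). Shared sequence, which covers 100% of the windows of Phospho1 and Igf2, limits them too. Gapdh had 0 reads (29.2% shared), Actg1 16 and Pgk1 28, and neither Actg1 nor Pgk1 had an exact shared window. Copies that differ by a few bases were not searched, and the cause of these low counts was not tested.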

Other observations

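Of 5854 lincRNA genes, 7 were among the 500, and all of them together held 1.31% of the reads. Among noncoding RNAs below the first 30 positions, Gas5, a host of small nucleolar RNAs, had 3302 reads at position 40, Meg3 had 1759 at 81, H19 had 1578 at 98 and Neat1, the scaffold of paraspeckles, had 1326 at 120. B2m, the light chain of class I histocompatibility proteins, had 3304 reads at position 39. Ccdc80, a secreted matrix protein, had 3590 and Cpe, carboxypeptidase E, which trims peptide hormones, had 2404 beside the 8544 of the enkephalin precursor Penk. These genes were chosen after their values were seen.

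Cdsn, at 4736 reads, had more reads than Fmod or Cnmd, while 11 of 14 epithelial genes were at 0. The exact search of transcript ends found no window of Cdsn shared with another gene and no gene that overlaps it, and sequence outside annotated transcripts was not searched. Gm42418, with 6926 reads, has no TPM and overlaps AY036118 and CT010467.1 on the opposite strand, with 0 and 1 reads.

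The TPM list brought up short genes and copies. Gm15536 stood 77th by TPM with 219 reads, Gm26384 stood 99th with 169 and Mir703 stood 89th with 186. Neat1 stood at 2162 by TPM and Ahnak at 2315, with 1326 and 1048 reads.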
